A study of Homo sapiens with 6 samples.

Results

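Mitochondrial apoptosis is run by genes that promote it and genes that hold it back, and 9 of them were followed here in LN-229 cells carrying an sh-JMJD1C treatment. The 9 were chosen by name, as rows of the deposited tables whose Ensembl ID maps to BAK1, BAX, BAD, BCL2L11, APAF1, CASP9, BCL2L1, MCL1 or XIAP, out of 58174 genes listed. All 9 were found, 6 of them pro-apoptotic (BAK1, BAX, BAD, BCL2L11, APAF1 and CASP9) and 3 anti-apoptotic (BCL2L1, MCL1 and XIAP). LN-229 is an established human glioblastoma line. The study set 3 libraries labelled sh-JMJD1C treated against 3 labelled control-NC treated, to look for genes that depend on JMJD1C, a member of the JmjC family of histone demethylases. All 6 libraries are described as nuclear-enriched RNA after ribosomal depletion, and the values are levels of transcripts and not of protein. The labels give neither the hairpin's sequence, nor the time after treatment, nor what the NC control carries, and they do not say whether the cells were a clone or a pool. Nor is it stated that replicates were grown apart, and the p-values therefore speak to the spread between libraries, some or all of which may be technical. In bulk RNA, fewer cells expressing a gene and less of its RNA per cell cannot be told apart.

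In this pathway BAX and BAK1 are the effectors that permeabilise the outer mitochondrial membrane and release cytochrome c. BH3-only proteins such as BAD and BIM, the product of BCL2L11, set them free or activate them, while BCL-XL, the product of BCL2L1, and MCL1 bind and restrain them. Released cytochrome c drives APAF1 into the apoptosome, which activates the initiator caspase CASP9, and XIAP binds and inhibits CASP9 and the executioner caspases. BCL2L1, MCL1, BCL2L11 and CASP9 each make splice forms, some with the opposite or a weaker action. The files give 1 value per gene, so these forms were not separated.

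Sequences before a RefSeq start of BAK1, CASP9 and XIAP are shown because these were the 3 of the 9 genes that passed the test on reads described below. They are RefSeq sequences on GRCh38.p14, 5′ to 3′ on the gene's strand, ending before the RefSeq start or, where the 250 bases before it hold an exon base of the gene in GENCODE 29, before the first of these. Capitals mark GGGCGG or its reverse complement CCGCCC, the core of the GC box.
BAK1, chr6:33580294-33580526, minus strand: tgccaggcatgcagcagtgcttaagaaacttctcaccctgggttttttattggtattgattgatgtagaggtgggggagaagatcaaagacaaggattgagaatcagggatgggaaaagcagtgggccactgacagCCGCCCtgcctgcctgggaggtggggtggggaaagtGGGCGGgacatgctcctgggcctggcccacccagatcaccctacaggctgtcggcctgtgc
CASP9, chr1:15524890-15525040, minus strand: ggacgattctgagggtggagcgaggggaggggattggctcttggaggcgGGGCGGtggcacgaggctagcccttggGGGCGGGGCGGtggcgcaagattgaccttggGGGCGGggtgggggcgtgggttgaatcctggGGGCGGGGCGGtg
XIAP, chrX:123859458-123859707, plus strand: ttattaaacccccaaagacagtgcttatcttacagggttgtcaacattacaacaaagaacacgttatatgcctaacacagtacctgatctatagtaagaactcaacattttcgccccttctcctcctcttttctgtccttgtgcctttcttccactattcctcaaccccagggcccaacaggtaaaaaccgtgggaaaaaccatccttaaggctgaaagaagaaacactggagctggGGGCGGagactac
The table held an entry for 8 of the 9 genes, and where it gave several starts the one nearest to the gene's annotated 5′ end was taken (1 start for BAK1, 2 for CASP9, 3 for XIAP). Over the full 250 bases before the start, searched on both strands with overlapping matches counted, the GC box was found 2 times at BAK1, 8 times at CASP9 and 1 time at XIAP. Some neighbouring matches at CASP9 overlap by a base, and its window lies inside the annotated span of the gene, whose outermost start is at 15526534. The same letters occurred in 42.6% of 35116 RefSeq windows of this length. GC content was 58.0% at BAK1, 71.6% at CASP9 and 44.8% at XIAP, against a median of 58.0% over all windows. CCAAT or ATTGG, present in 32.0% of windows, occurred 1 time each at BAK1 and CASP9 and not at XIAP. TATAAA, on either strand in 10.7% of windows, was found in none of the 3. These are matches to letters and not measured binding sites.

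Depth was low. The whole reads recovered from the FPKM values summed to between 1660582 and 1919676 per sh-JMJD1C library and between 544450 and 2960497 per control-NC library, so 3 reads, the limit that a count of 0 allows, stood for 1.56 to 1.81 RPM (reads scaled to the library total) in sh-JMJD1C and 1.01 to 5.51 RPM in control-NC. JMJD1C itself, the targeted gene, had 45.3, 8.33 and 24.1 RPM in sh-JMJD1C libraries 1 to 3 and 145, 114 and 236 RPM in control-NC libraries 1 to 3, without overlap. MALAT1, a nuclear RNA, took 0.0915% to 0.292% of reads in sh-JMJD1C and 1.25% to 2.40% in control-NC, and the cytoplasmic RN7SL RNAs took 1.18%, 15.7% and 18.5% in sh-JMJD1C 1 to 3 and 0.378% to 1.77% in control-NC. Mitochondrial RNA took 12.6%, 1.33% and 1.70% in sh-JMJD1C 1 to 3 and 2.93% to 8.70% in control-NC, so RNA from outside the nucleus was present in libraries of both groups. In its RN7SL share sh-JMJD1C 1 lay within the control range, and it was also the lowest of its group for BAK1, BAX, BAD and CASP9. Of 8 glioblastoma or astroglial markers, 7 had a read, with a summed level of 898 to 2267 RPM in sh-JMJD1C and 1809 to 3039 RPM in control-NC. EGFR and VIM carried much of that sum, while GFAP had 15 reads over all libraries and S100B had 0. Of 4 epithelial markers all had a read, and their sum, nearly all KRT8 and KRT18, was 3371 to 5417 RPM in sh-JMJD1C and 748 to 1444 RPM in control-NC, while EPCAM had 19 reads over all libraries and CDH1 had 16. The markers of neurons (3 of 4 with a read), oligodendrocytes (2 of 3), microglia (4 of 5) and endothelium (2 of 3) had list sums, each list on its own, of at most 19.1 RPM in an sh-JMJD1C library and at most 38.6 RPM in a control-NC library. The part of these library differences in the results below was not tested, except for transcript length and GC content, which are given beside them.

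CASP9 and BAK1 rose and XIAP fell in the sh-JMJD1C libraries when whole reads were tested with limma-voom, by 3.96-fold, 5.13-fold and 4.35-fold. The same 3 genes did not pass the test planned for the deposited unit, limma on log2(FPKM + 0.5) after scaling, nor did any of the other members. In that fit 0 of the 7 members above its filter had an adjusted p below 0.05, and 5 of the 7 had an unadjusted p below 0.05. Over all 17869 genes tested there, 0.196% passed at the adjusted threshold, 0.0616% higher and 0.134% lower, and 20.3% at the unadjusted one. On reads 3 of 9 members passed, 2 of them higher and 1 lower, where 5.52% of 11877 genes passed, 3.71% higher and 1.81% lower. When the planned fit was run on protein-coding genes only, where 9.1% of 10062 genes passed, BAK1, BAD and CASP9 passed higher and XIAP lower. Groups of libraries did not overlap for 7 of the 9 members, 5 higher and 2 lower, where 17.3% of genes in the reads fit did not overlap and were higher and 17.2% lower. Below, scaled RPM means RPM after division by median-ratio scaling factors, and log2 fold changes are sh-JMJD1C over control-NC.

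**Figure D1:**
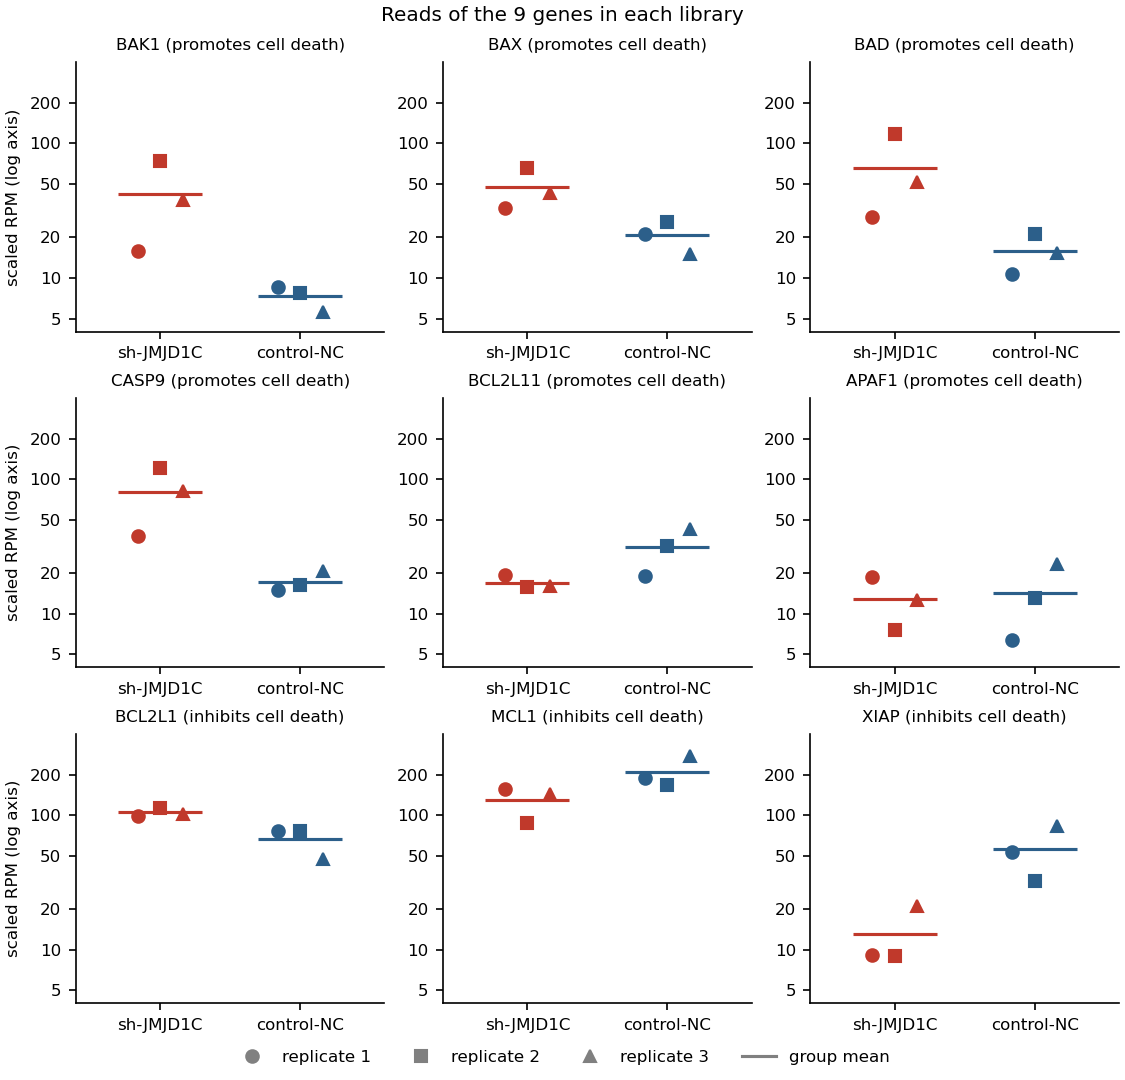
Scaled RPM, on a log axis, of each of the 9 genes in the 3 sh-JMJD1C libraries (left, red) and the 3 control-NC libraries (right, blue), with symbols for replicates 1 to 3 and a line at each group's mean. BAK1, CASP9 and XIAP sit apart between groups, while BCL2L11 and APAF1 overlap.

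BAK1, an effector (ENSG00000030110, chromosome 6:33572547-33580293, minus strand in hg38), was higher in every sh-JMJD1C library. It had 28, 107 and 54 reads in sh-JMJD1C libraries 1 to 3, and 4, 19 and 23 reads in control-NC libraries 1 to 3. That was 15.9, 73.4 and 37.9 scaled RPM in sh-JMJD1C and 8.53, 7.73 and 5.62 scaled RPM in control-NC. The lowest sh-JMJD1C library was above the highest control, and sh-JMJD1C 2 stood highest. On the deposited scale BAK1 averaged 6.36 ± 4.24 scaled FPKM in sh-JMJD1C and 1.14 ± 0.203 in control-NC (SD, n = 3 each), a log2 fold change of 1.86 with a standard error of 0.51 (limma, adjusted p = 0.146). On reads BAK1 rose by 2.36 on the log2 scale (standard error 0.62, limma-voom adjusted p = 0.0494). Over the 11 alternatives of the reads fit the adjusted p ran from 0.000944 to 0.189, and BAK1 passed in 4 of them. It did not pass without control-NC 1, control-NC 3, sh-JMJD1C 2 or sh-JMJD1C 3 (log2 fold changes 2.41, 2.01, 1.87 and 2.32), and without sh-JMJD1C 1 its log2 fold change was 2.98. The BAK1 pseudogenes BAK1P1 and BAK1P2 held 12 and 4 reads over all libraries. BAK1 shares 91 of its 2212 exon bases with GGNBP1 on the opposite strand. GGNBP1 had 10, 13 and 9 reads in sh-JMJD1C and 0, 5 and 3 in control-NC.

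BAX, the other effector (ENSG00000087088, chromosome 19:48954815-48961798, plus strand), had values in the same direction that did not pass. It had 58, 96 and 61 reads in sh-JMJD1C and 10, 64 and 62 in control-NC. Scaled RPM was 32.9, 65.8 and 42.8 in sh-JMJD1C and 21.3, 26.0 and 15.1 in control-NC, so the groups did not overlap. The log2 fold change was 0.95 (standard error 0.36, limma adjusted p = 0.214) on FPKM and 1.18 (standard error 0.44, limma-voom adjusted p = 0.104) on reads. With length and GC trends removed it turned to -0.10 (limma-voom adjusted p = 0.845, range over the alternatives on reads 0.0116 to 0.845). In that fit the genes of 2159 nt or less, BAX among them, had a median of -0.18.

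The BH3-only genes BAD and BCL2L11 went different ways, and neither passed in the planned fit or on reads. BAD, whose product frees BAX and BAK1 by binding BCL-XL (ENSG00000002330, chromosome 11:64269830-64284704, minus strand), had 50, 170 and 74 reads in sh-JMJD1C and 5, 52 and 63 in control-NC. Scaled RPM was 28.4, 117 and 52.0 in sh-JMJD1C and 10.7, 21.1 and 15.4 in control-NC, without overlap, and sh-JMJD1C 2 was again the highest. BAD averaged 14.2 ± 9.65 scaled FPKM in sh-JMJD1C and 3.59 ± 1.22 in control-NC (SD, n = 3 each). Its log2 fold change was 1.69 on FPKM (standard error 0.54, limma adjusted p = 0.172) and 1.71 on reads (standard error 0.55, limma-voom adjusted p = 0.0728). BAD shares 404 of its 1708 exon bases with GPR137 on the opposite strand, and the strand setting of the counting is not given in the sources used here. GPR137 had 102, 181 and 68 reads in sh-JMJD1C and 8, 86 and 80 in control-NC, so reads of the 2 genes cannot be told apart over the shared bases.

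BCL2L11, whose product BIM binds all BCL2-like inhibitors (ENSG00000153094, chromosome 2:111119378-111168447, plus strand), had 34, 23 and 23 reads in sh-JMJD1C and 9, 78 and 174 in control-NC. Its scaled RPM of 19.3, 15.8 and 16.2 in sh-JMJD1C lay at the low end of the 19.2, 31.7 and 42.5 in control-NC, and the groups overlapped. BCL2L11 averaged 0.320 ± 0.0424 scaled FPKM in sh-JMJD1C and 0.611 ± 0.247 in control-NC (SD, n = 3 each), under the filter of the planned fit. The log2 fold change on reads was -0.92 (standard error 0.43, limma-voom adjusted p = 0.168). It shares 727 of 6658 exon bases with the antisense MIR4435-2HG, which had 107, 108 and 77 reads in sh-JMJD1C and 25, 212 and 275 in control-NC. Reads of both genes cannot be told apart over the shared bases.

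In the apoptosome pair, CASP9 rose on reads and APAF1 did not pass. CASP9, the initiator caspase (ENSG00000132906, chromosome 1:15490832-15526534, minus strand), had 67, 178 and 117 reads in sh-JMJD1C and 7, 40 and 85 in control-NC. That was 38.0, 122 and 82.2 scaled RPM in sh-JMJD1C and 14.9, 16.3 and 20.8 scaled RPM in control-NC. The 3 controls lay close together, and every sh-JMJD1C library was above them. CASP9 averaged 4.85 ± 2.44 scaled FPKM in sh-JMJD1C and 1.09 ± 0.229 in control-NC (SD, n = 3 each), a log2 fold change of 1.64 with a standard error of 0.43 (limma, adjusted p = 0.140). On reads CASP9 rose by 1.99 on the log2 scale (standard error 0.50, limma-voom adjusted p = 0.0422, range 0.00108 to 0.169 over 11 alternatives, of which 5 passed). It was the only member that passed with the length trend removed (log2 fold change 2.24, limma-voom adjusted p = 0.0385) and with length and GC trends removed (1.95, limma-voom adjusted p = 0.0390). Leaving out any single library but sh-JMJD1C 1 lost the call, with log2 fold changes of 1.90 without control-NC 2, 1.95 without control-NC 1, 2.06 without control-NC 3, 1.64 without sh-JMJD1C 2 and 1.90 without sh-JMJD1C 3.

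APAF1, the scaffold that CASP9 is activated on (ENSG00000120868, chromosome 12:98645141-98735433, plus strand), had 33, 11 and 18 reads in sh-JMJD1C and 3, 32 and 96 in control-NC. Its scaled RPM was 18.7, 7.54 and 12.6 in sh-JMJD1C and 6.40, 13.0 and 23.5 in control-NC, and the groups overlapped fully. The log2 fold change on reads was -0.36 with a standard error of 0.54 (limma-voom adjusted p = 0.675), and its sign depended on the processing, being 0.27 with the length trend removed and 0.74 with length and GC trends removed. The gene lay under the filter of the planned fit, and 750 of its 7908 exon bases are shared with ANKS1B on the opposite strand, which had 1 to 13 reads per library.

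Of the 3 anti-apoptotic genes, XIAP fell on reads, MCL1 had lower and BCL2L1 higher values that did not pass. XIAP, the caspase inhibitor (ENSG00000101966, chromosome X:123859724-123913979, plus strand), had 16, 13 and 30 reads in sh-JMJD1C and 25, 80 and 339 in control-NC. Scaled RPM was 9.08, 8.91 and 21.1 in sh-JMJD1C and 53.3, 32.5 and 82.8 in control-NC. The highest sh-JMJD1C library stayed below the lowest control. XIAP averaged 0.431 ± 0.231 scaled FPKM in sh-JMJD1C and 1.94 ± 0.927 in control-NC (SD, n = 3 each), a log2 fold change of -1.35 with a standard error of 0.42 (limma, adjusted p = 0.167). On reads it fell by 2.12 on the log2 scale (standard error 0.53, limma-voom adjusted p = 0.0422, range 0.00160 to 0.187 over 11 alternatives, of which 3 passed). The value was -1.39 with the length trend removed (limma-voom adjusted p = 0.110) and -0.79 with length and GC trends removed (limma-voom adjusted p = 0.181). It did not pass without control-NC 1, control-NC 3, sh-JMJD1C 1, sh-JMJD1C 2 or sh-JMJD1C 3 (log2 fold changes -2.11, -1.80, -1.92, -1.89 and -2.49). No annotated gene shares its exon bases, and the XIAP pseudogenes XIAPP2 and XIAPP3 held 9 and 2 reads over all libraries.

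MCL1, a short-lived inhibitor of BAK1 (ENSG00000143384, chromosome 1:150574551-150579738, minus strand), had the most reads of the 9 genes over all libraries. It had 275, 128 and 203 reads in sh-JMJD1C and 88, 411 and 1122 in control-NC. Scaled RPM was 156, 87.8 and 143 in sh-JMJD1C and 188, 167 and 274 in control-NC, without overlap. Its log2 fold change was -0.74 on FPKM (standard error 0.40, limma adjusted p = 0.325) and -0.71 on reads (standard error 0.38, limma-voom adjusted p = 0.226). BCL2L1, which encodes BCL-XL (ENSG00000171552, chromosome 20:31664452-31723989, minus strand), had 174, 164 and 146 reads in sh-JMJD1C and 36, 188 and 193 in control-NC. Its scaled RPM of 98.8, 112 and 103 in sh-JMJD1C varied little between libraries and lay above the 76.8, 76.4 and 47.2 in control-NC. The log2 fold change was 0.58 on FPKM (standard error 0.32, limma adjusted p = 0.336) and 0.71 on reads (standard error 0.37, limma-voom adjusted p = 0.206), and with length and GC trends removed it was 0.01. BCL2L1 shares 1424 of its 3314 exon bases with the antisense RNA ABALON, which had 89, 130 and 61 reads in sh-JMJD1C and 26, 78 and 119 in control-NC, so reads of the 2 cannot be told apart over the shared bases.

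**Figure D2:**
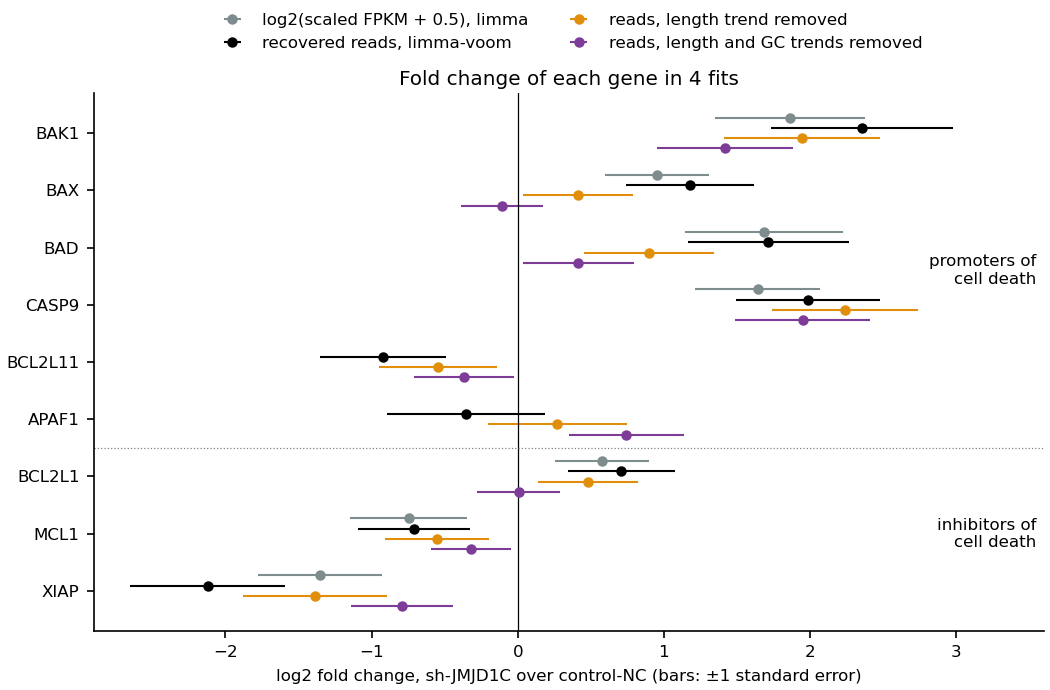
Log2 fold change, sh-JMJD1C over control-NC, of each gene with ±1 standard error in 4 fits: limma on scaled FPKM, limma-voom on reads, and limma-voom with the length trend or the length and GC trends removed. CASP9 stays near 1.64 to 2.24 in all 4 fits, while BAX, BAD and BCL2L1 move towards 0 and XIAP from -2.12 to -0.79 once both trends are removed. BCL2L11 and APAF1 have no point in the FPKM fit, being under its filter.

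Pro-apoptotic genes lay higher than anti-apoptotic genes as a group. The median log2 fold change on the FPKM scale, with the members under the filter included, was 1.30 over the 6 pro-apoptotic genes and -0.74 over the 3 anti-apoptotic ones, a gap of 2.04. No test was run on this gap, as the members were chosen with earlier results of these data known. Taken per library, the gap had an SD of 0.771, pooled within the groups. On reads the medians were 1.44 and -0.71, a gap of 2.15, where all genes had a median of -0.08. In each library, levels were taken on the log2(scaled RPM + 0.5) scale relative to the control mean. The pro-apoptotic median was then 0.78, 2.23 and 1.40 in sh-JMJD1C 1 to 3 and -0.34, 0.10 and 0.15 in control-NC 1 to 3. The anti-apoptotic median was -0.39, -1.22 and -0.52 in sh-JMJD1C and 0.02, -0.29 and 0.42 in control-NC. The gap was 1.17, 3.45 and 1.92 in sh-JMJD1C and -0.37, 0.39 and -0.27 in control-NC, so sh-JMJD1C 2 showed it most. On reads with the length trend removed the gap was 1.21, and with length and GC trends removed it was 0.90. The roles were not uniform on reads: 4 of 6 pro-apoptotic genes had positive log2 fold changes and 2 negative ones, and 1 of 3 anti-apoptotic genes had a positive one.

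Ratios of reads within a library do not depend on the scaling of libraries. They still carry the trends with transcript length and GC content given below, as the 2 genes of a pair can differ in both. CASP9 had 4.19 reads per XIAP read in sh-JMJD1C 1 (exact 95% interval 2.40 to 7.74), 13.7 in sh-JMJD1C 2 (7.80 to 26.2) and 3.90 in sh-JMJD1C 3 (2.59 to 6.04). It had 0.280 in control-NC 1 (0.102 to 0.666), 0.50 in control-NC 2 (0.333 to 0.740) and 0.251 in control-NC 3 (0.195 to 0.319). CASP9 outnumbered XIAP in every sh-JMJD1C library, and XIAP outnumbered CASP9 in every control. BAK1 reads per MCL1 read were 0.102, 0.836 and 0.266 in sh-JMJD1C and 0.0455, 0.0462 and 0.0205 in control-NC, also without overlap. For both pairs the lack of overlap had to follow, as each gene alone was apart between groups, in opposite directions. It is therefore no further evidence beside the values of the single genes. Per BCL2L1 read, BAK1 had 0.161, 0.652 and 0.370 in sh-JMJD1C and 0.111, 0.101 and 0.119 in control-NC, again without overlap. BAX reads per BCL2L1 read were 0.333, 0.585 and 0.418 in sh-JMJD1C and 0.278, 0.340 and 0.321 in control-NC, and these overlapped. BCL2L11 reads per MCL1 read overlapped too, at 0.124, 0.180 and 0.113 in sh-JMJD1C and 0.102, 0.190 and 0.155 in control-NC. The intervals cover counting error only.

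**Figure D3:**
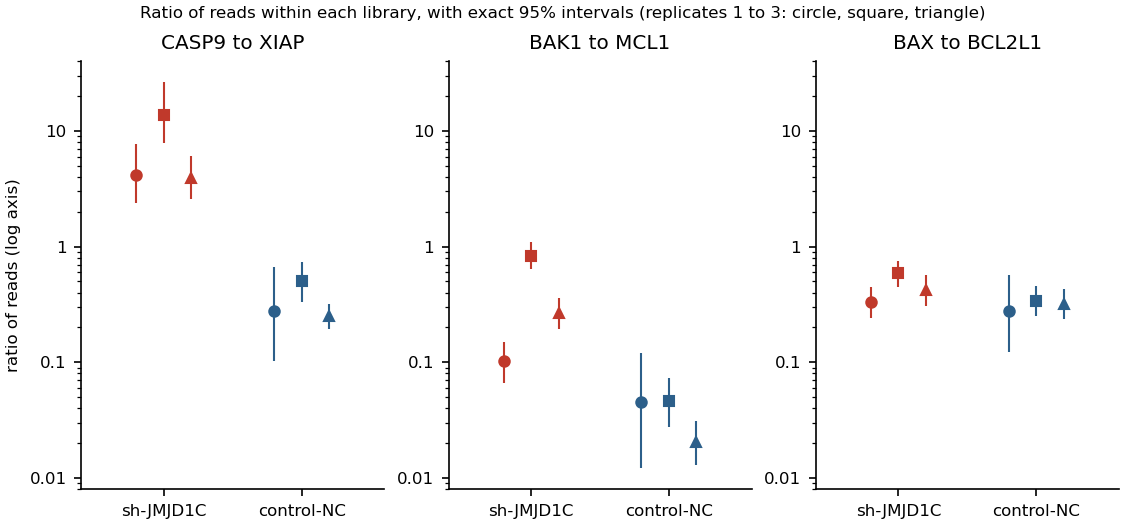
Reads of a pro-apoptotic gene per read of an anti-apoptotic gene in each library, on a log axis shared by the 3 panels, with exact 95% intervals. CASP9 to XIAP and BAK1 to MCL1 are apart between sh-JMJD1C (left of each panel) and control-NC (right), and BAX to BCL2L1 overlaps. The separation of the first and second pair follows from that of the single genes.

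Transcript length and GC content moved with the fold change over all genes. The median log2 fold change on reads was 0.72 for genes whose longest annotated transcript was 2159 nt or less and -0.69 for those of 5351 nt or more. By GC content of that transcript it was -0.90 at 42.3% or less and 0.63 at 56.4% or more. Apart from CASP9, the members had fold changes in the direction of these medians, some of them well beyond. BAK1, at 2.36, stood above the 0.15 median of genes of 2160 to 3540 nt and the 0.63 median by GC. XIAP, at -2.12, stood below the -0.69 median by length and the -0.90 median by GC. BAD (1157 nt, 66.3% GC), BAX (1358 nt, 58.9%), BAK1 (2212 nt, 58.8%) and BCL2L1 (2610 nt, 56.9%) are short and GC-rich, whereas XIAP (8591 nt, 39.0%), APAF1 (7055 nt, 41.7%), BCL2L11 (5231 nt, 45.7%) and MCL1 (3932 nt, 45.1%) are longer and poorer in GC. CASP9 (4463 nt, 52.8% GC) is among the genes of 3541 to 5350 nt, whose median was -0.27, and among those of 48.6% to 56.4% GC, whose median was 0.29. With the length trend removed 1 of 9 members passed where 3.42% of genes did, 2.34% higher and 1.07% lower. With both trends removed 1 of 9 passed where 6.76% of genes did, 3.67% higher and 3.1% lower. The member was CASP9 in both, higher in sh-JMJD1C. BAK1 lost its call, with a log2 fold change of 1.95 (limma-voom adjusted p = 0.0627) with the length trend removed and of 1.42 (limma-voom adjusted p = 0.0902) with both removed, and BAD had 0.90 and 0.41. Removing GC after length left a smaller, reversed trend with length. The median was then -0.18 for genes of 2159 nt or less and 0.14 for those of 5351 nt or more.

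**Figure D4:**
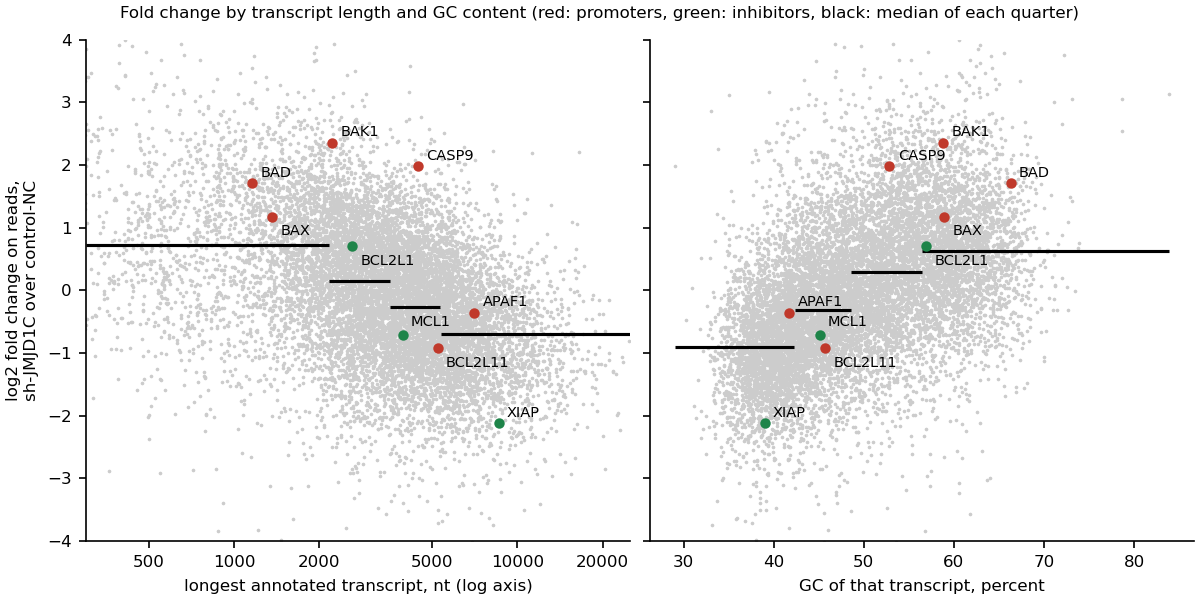
Log2 fold change on reads, sh-JMJD1C over control-NC, of each gene tested (grey) against the length of its longest annotated transcript (left, log axis) and that transcript's GC percent (right), with the 9 genes named and black lines at the median of each of 4 equal groups of genes. Medians run from 0.72 to -0.69 with length and from -0.90 to 0.63 with GC, and CASP9, at 1.99, stands above the -0.27 median of genes of 3541 to 5350 nt and the 0.29 median of genes of 48.6% to 56.4% GC. BAK1, at 2.36, and XIAP, at -2.12, also lie well beyond the medians of their groups. The axes leave out 208 genes at left and 38 at right.

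The order of the genes by level, in scaled RPM per kilobase of longest transcript, differed between groups. In sh-JMJD1C the order was BAD (56.7 ± 39.4), BCL2L1 (40.1 ± 2.70), BAX (34.8 ± 12.4), MCL1 (32.8 ± 9.21), BAK1 (19.2 ± 13.1), CASP9 (18.1 ± 9.41), BCL2L11 (3.26 ± 0.371), APAF1 (1.84 ± 0.794) and XIAP (1.52 ± 0.811; SD, n = 3). Neighbours down to CASP9 overlapped in their library values, as did APAF1 and XIAP, while CASP9 and BCL2L11, and BCL2L11 and APAF1, did not. In control-NC, MCL1 stood first (53.3 ± 14.4) without overlap with the next gene, BCL2L1 (25.6 ± 6.51). BAX (15.3 ± 4.02), BAD (13.6 ± 4.54), XIAP (6.54 ± 2.94), BCL2L11 (5.95 ± 2.23), CASP9 (3.88 ± 0.686), BAK1 (3.30 ± 0.679) and APAF1 (2.03 ± 1.22) followed, each overlapping the next. XIAP was thus at rank 9 in sh-JMJD1C libraries and at rank 5 in controls, and BAD at rank 1 in sh-JMJD1C and rank 4 in controls. The rank of BAD rests on sh-JMJD1C 2: without that library it averaged 34.7, at rank 3, with BCL2L1 at rank 1 (38.6). XIAP was at rank 8 without sh-JMJD1C 1 and at rank 6 of the controls without control-NC 1. Length and GC content, whose relation to the fold change is given above, differ between these genes.

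The profiles most like those of BAK1 and XIAP were sought among 8197 protein-coding genes by the root-mean-square difference of log2 profiles over the 6 libraries. Closest to BAK1 were TIMM13, a mitochondrial import chaperone (0.115), DDIT4, an inhibitor of mTOR signalling (0.124), and ISG15, an interferon-induced ubiquitin-like modifier (0.129). Closest to XIAP were the poly(A) polymerase TENT4B (0.109), N4BP2L2 (0.124) and PRKAA2, a catalytic subunit of AMP-activated kinase (0.126). None of these 6 genes had an adjusted p below 0.05 in the planned limma fit. BAK1 and XIAP, whose profiles the 6 were chosen to match, did not pass it either, so this adds nothing about the 6 genes.

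Of 33 other genes of the pathway 27 were tested on reads, and 1 passed, where 5.52% of all genes did. It was BIRC5, which encodes survivin, an inhibitor-of-apoptosis family protein that works mainly in mitosis. BIRC5 had 167, 444 and 367 reads in sh-JMJD1C and 5, 80 and 171 in control-NC, and averaged 16.7 ± 8.18 scaled FPKM in sh-JMJD1C and 2.28 ± 1.34 in control-NC (SD, n = 3 each). It rose by 2.69 on the log2 scale (standard error 0.55, limma-voom adjusted p = 0.0250) and passed with the length trend removed and with both trends removed (limma-voom adjusted p = 0.0312 and 0.0318). Without control-NC 1, control-NC 3, sh-JMJD1C 2 or sh-JMJD1C 3 it did not pass (limma-voom adjusted p = 0.0924, 0.0776, 0.119 and 0.0679, within a range of 0.000220 to 0.119). So on reads BIRC5 rose where XIAP, of the same protein family, fell. XIAP, unlike BIRC5, did not pass with the length trend or both trends removed (limma-voom adjusted p = 0.110 and 0.181). BIRC2, BIRC3 and BIRC6, also of this family, had log2 fold changes of -1.18, -0.81 and -0.73 on reads. With both trends removed these were -0.35, 0.36 and 0.65, and none passed in either fit.

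Of the 27 genes tested on reads, 1 passed higher, 0 passed lower and 26 did not pass, with a median log2 fold change of 0.19 against -0.08 over all genes. The single call is no larger a share than the 5.52% of all genes that passed on reads, 3.71% higher and 1.81% lower. In the planned fit 0 of 27 passed, with 7 at an unadjusted p below 0.05, where 20.3% of all genes were. BCL2, the founding inhibitor of the family, had 0, 1 and 1 reads in sh-JMJD1C and 1, 19 and 38 in control-NC, the single read of control-NC 1 coming from the shallowest library. Its fitted log2 fold change was -3.56 (limma-voom adjusted p = 0.0603) and -2.69 with both trends removed (limma-voom adjusted p = 0.0906). Reads pooled over libraries, without scaling, were 27.7-fold fewer in sh-JMJD1C per read sequenced, with an exact 95% interval of 7.32 to 234 that covers counting error only. The fit, which keeps libraries apart and scales them, gave 11.8-fold. BCL2L2, another inhibitor, passed lower with both trends removed only (log2 fold change -1.24, limma-voom adjusted p = 0.0495). CYCS, cytochrome c, had a log2 fold change of -0.25 (limma-voom adjusted p = 0.722), and DIABLO, an antagonist of XIAP, one of 0.17 (limma-voom adjusted p = 0.861). BCL2A1 and BCL2L10 had no read in any library.

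**Figure D5:**
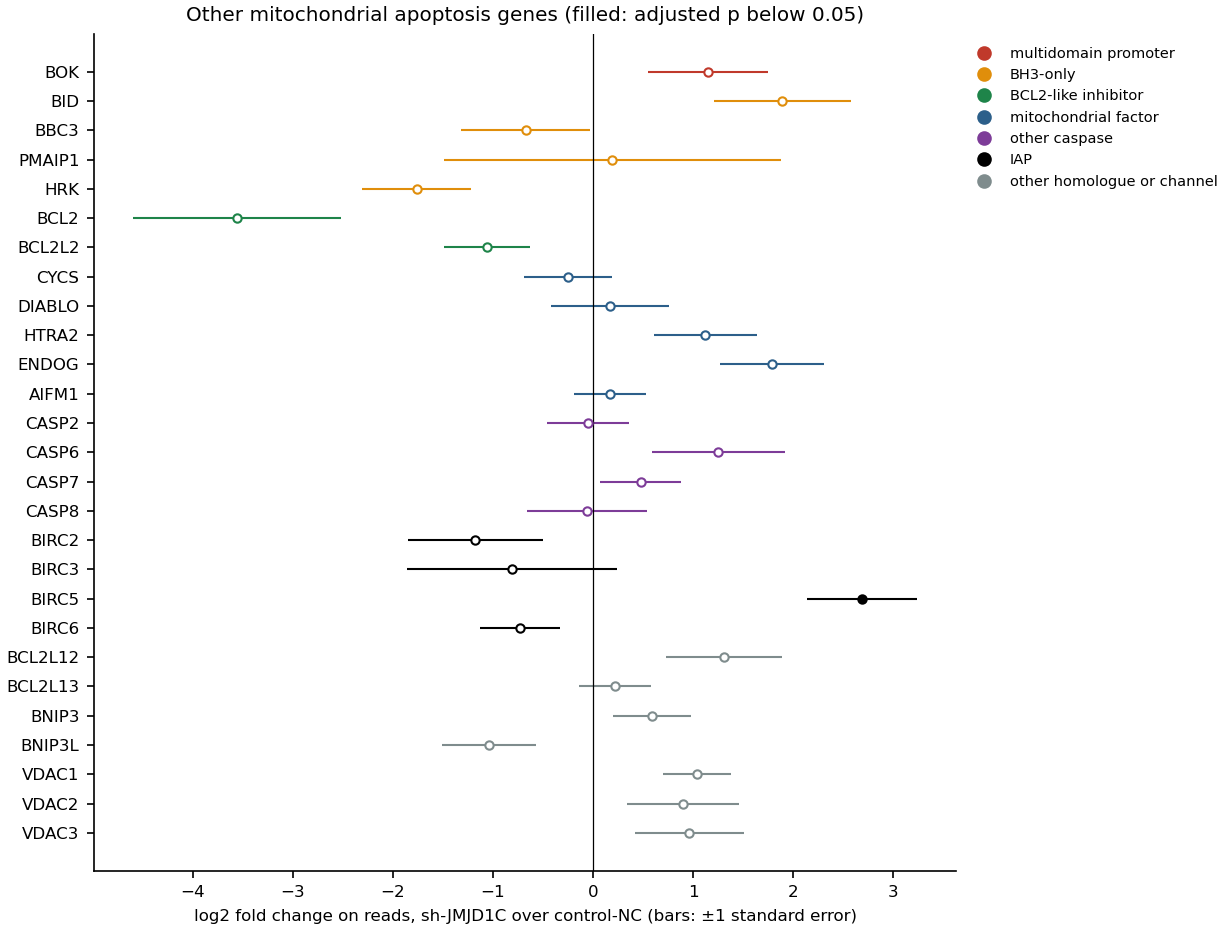
Log2 fold change on reads, sh-JMJD1C over control-NC, with ±1 standard error for the 27 other pathway genes tested, coloured by role. BIRC5, at 2.69, is the filled point, the 1 gene with an adjusted p below 0.05, and BCL2 lies lowest with a wide error from 2 reads in sh-JMJD1C and 58 in control-NC.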

How the data were processed

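The authors deposited FPKM values per Ensembl gene for each of 6 libraries, in columns for growing shares of the library. Only the full-library column was used for the results. Bowtie 0.12.2 and the hg38 build are named in the submitters' processing notes, without their roles. For the counting tool, its strand setting, read length and mapping rate nothing is recorded there. Gene symbols, positions, transcript lengths and GC content came from GENCODE 29, in which 57836 of 58174 IDs were found.

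The deposited FPKM keep the steps of whole reads. A gene length was accepted only where every value under 1000 reads came out whole within 0.05 reads, so that all did is set by the rule. For 93.9% of genes the length used was the sum of all annotated transcript lengths of the gene. FPKM therefore compares levels between genes poorly, so levels between genes are given per kilobase of longest transcript. The planned test was limma (3.58.1, R 4.3.3) with trend on log2(FPKM + 0.5), with FPKM first divided by each library's median-ratio factor. It covered 17869 genes whose mean reached 0.5 and was two-sided, with Benjamini-Hochberg adjustment and a threshold of 0.05. On that scale fold changes of low genes are understated. A second fit used limma-voom on recovered reads, for the 11877 genes totalling 60 reads or more. In 2 versions of it lowess trends (span 0.3) with transcript length, or with length and then GC, were removed. Intervals on reads are exact (Clopper-Pearson, 95%).

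All 9 members are named. Of the 33 other pathway genes those with an adjusted p below 0.05 in either fit are named, with BCL2, CYCS and DIABLO whatever their values. BCL2L2, BCL2A1, BCL2L10, BIRC2, BIRC3 and BIRC6 were named after their values were seen. A further gene that was to be named whatever its value is not reported here. The nearest profiles are the 3 protein-coding genes closest to the members with the highest and the lowest log2 fold change. The members, lists and tests were chosen with earlier results of these data known. Alternatives covered the pseudocount, filters, scaling, array weights, a replicate block and leaving out libraries.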

Additional observations from a re-analysis of the deposited data

How the results depend on the processing

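Over the alternatives, 25 of 225 values of single members crossed the adjusted threshold into a call, 196 kept their direction and their side of it, and 4 changed sign, judged against the planned fit except for BCL2L11 and APAF1, which were judged against the fit on reads. Against the calls on reads, BAK1 passed in 4, CASP9 in 5 and XIAP in 3 of 11 alternatives and lost the call in the others. The sign changes were BAX (-0.10 with length and GC trends removed) and APAF1 (0.27 with the length trend removed, 0.74 with both removed, and 0.043 without control-NC 3 on reads), and the cause was not tested. The number of genes called, 35 in the planned fit (11 higher, 24 lower), was 83 with a pseudocount of 0.1, 0 with a pseudocount of 1 (3566 at an unadjusted p below 0.05), 0 without a filter (3821), 79 on FPKM as deposited, 4 with quantile normalization, 916 on protein-coding genes only and 119 with array weights. It was 656 with limma-voom (441 higher, 215 lower), 405 with the length trend removed, 802 with length and GC trends removed (435 and 367) and 1195 with library totals (311 and 884). Library totals moved the median log2 fold change of all genes to -0.52, and FPKM as deposited to -0.38, against -0.13 and -0.08 in the 2 fits reported. Leaving out 1 library at a time gave 0 to 695 calls on FPKM (1995 to 4403 at an unadjusted p below 0.05) and 31 to 2334 on reads, among them 1288 without control-NC 2 and 97 without sh-JMJD1C 3. Without both libraries numbered 1 there were 0 calls on FPKM (4213 at an unadjusted p below 0.05) and 895 on reads.

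Members called numbered 0 of 7 in the planned fit with limma, 4 on protein-coding genes only, 3 with limma-voom and 1 each with the length trend removed, both trends removed or library totals. With library totals that gene was XIAP, and BAK1 and CASP9 had adjusted p-values of 0.0503 and 0.0548. Leaving out 1 library gave 0 to 2 on FPKM and 0 to 4 on reads, and leaving out both numbered 1 gave 2 on reads. The highest counts, here and for the pathway genes below, came without sh-JMJD1C 1. There 695 of 17952 genes passed on FPKM and 2334 of 11877 on reads. Of all 11877 genes on reads, 895 passed without both numbered 1 and 1195 with library totals. Other pathway genes called numbered 0 of 27 in the planned fit, 3 on protein-coding genes, 1 with limma-voom, 1 with the length trend removed, 2 with both removed, 3 with library totals, 0 to 7 leaving out 1 library and 2 without both numbered 1. The gap between pro- and anti-apoptotic medians, 2.04 in the planned fit and 2.15 on reads, was on reads 1.21 with the length trend removed and 0.90 with both removed, and lay between 1.44 and 2.70 leaving out 1 library.

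Whether replicate numbers pair the samples was not settled. Deviations of same-numbered libraries correlated at 0.01, 0.14 and 0.23 for numbers 1 to 3, and those of differently numbered ones at -0.27 to 0.13. The best match of sh-JMJD1C 2 and of sh-JMJD1C 3 was the control of the same number, and that of sh-JMJD1C 1 was control-NC 2. With a replicate block, 0 genes passed on FPKM (4377 at an unadjusted p below 0.05). On reads 4260 of all 11877 genes passed with the block, among them 5 of 9 members and 13 of 27 other pathway genes. Depth limits APAF1 and BCL2, which rest on few reads, and control-NC 1 has the fewest reads of all libraries.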

Other observations

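The deposited tables also hold FPKM for growing shares of each library, from which the stability of a value within its library can be read. Between the columns from 50% of the library to the full library, the highest FPKM of MCL1 exceeded the lowest by a ratio of 1.03 to 1.28 across the 6 libraries, and that of BCL2L1 by 1.07 to 1.41. The ratio was 1.14 to 1.78 for BAK1, 1.11 to 2.05 for CASP9, 1.06 to 2.22 for XIAP and 1.31 to 3.42 for APAF1, the member with the fewest reads in control-NC 1.

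Several BH3-only and mitochondrial genes outside the 9 had values on reads that did not pass. HRK, a BH3-only gene, had a log2 fold change of -1.76 (limma-voom adjusted p = 0.0650), BID one of 1.89 (limma-voom adjusted p = 0.0969), the mitochondrial nuclease ENDOG one of 1.79 (limma-voom adjusted p = 0.0587) and the outer membrane channel VDAC1 one of 1.04 (limma-voom adjusted p = 0.0743). With length and GC trends removed these were -1.39 for HRK, 1.52 for BID, 0.53 for ENDOG and 0.60 for VDAC1 (limma-voom adjusted p = 0.0626, 0.152, 0.350 and 0.177). These 4 genes were chosen after their values were seen.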
